A study of Rattus norvegicus with 2 samples.

Results

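Neuropeptide processing enzymes and granins were compared between the hypothalamus of female and male rats. The group held 10 genes, found by gene name without a threshold on any value, namely the convertases Pcsk1 and Pcsk2, their inhibitors Pcsk1n and Scg5, the trimming enzyme Cpe, the amidating enzyme Pam and the granins Chga, Chgb, Scg2 and Scg3. All 10 were found among the non-control spots of both arrays, out of 20655 genes measured in both pools. The animals were adult rats of the Wistar Kyoto strain (WKY), a normotensive strain, aged 9 weeks and without any treatment named. Total RNA of the whole hypothalamus of 5 females was pooled, 100 ng from each rat, and RNA of 5 males was pooled in the same way. From each pool 150 ng was labelled with Cy3 and hybridised to 1 Agilent 1-colour array, so each sex is represented by 1 array. No test between the sexes was possible, no p-value is given, and differences between rats of 1 sex cannot be seen. Both arrays lay on the same slide. In RNA from a whole tissue block, fewer cells of a type and less RNA per cell cannot be told apart.

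Neuropeptides are made as long precursors that are sorted into dense-core vesicles and cut there. The prohormone convertases PC1/3 (Pcsk1) and PC2 (Pcsk2) cut after pairs of basic residues, carboxypeptidase E (Cpe) removes the basic residues left behind, and peptidylglycine alpha-amidating monooxygenase (Pam), a copper enzyme, turns a C-terminal glycine into an amide, as in oxytocin, vasopressin and gonadotropin-releasing hormone. Granins are acidic proteins that help to form the vesicles and are themselves cut into peptides, and proSAAS (Pcsk1n) and 7B2 (Scg5) act on the convertases. The hypothalamus, where magnocellular and hypophysiotropic neurons make peptides for release, is rich in this machinery.

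Each of the 10 genes was read by 1 probe of 60 bases on 1 spot, so every value below rests on 1 spot per array. The probes are set out here because a probe is all that was measured of each transcript. Those of Pam, Pcsk1n, Pcsk2 and Scg3 are given whole, from the deposited files, in lower case throughout and 5′ to 3′. All 10 probes, those shown here included, have at least 1 reading frame without a stop codon.
Pam: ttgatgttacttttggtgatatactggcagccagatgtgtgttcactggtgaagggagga
Pcsk1n: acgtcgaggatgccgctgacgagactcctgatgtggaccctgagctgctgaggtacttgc
Pcsk2: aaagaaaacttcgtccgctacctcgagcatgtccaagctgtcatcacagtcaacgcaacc
Scg3: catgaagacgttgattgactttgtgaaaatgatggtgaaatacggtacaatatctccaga

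The deposited annotation places the Pam probe at chr9:96977460-96977519 on the plus strand of build rn4, from base 1021 of the transcript NM_013000. The Pcsk1n probe lies at chrX:26614910-26615375 on the minus strand and spans 466 bases of the genome, more than its own length. The other placed probes lie at chr3:132255540-132255599 (Pcsk2, plus strand), chr8:80496358-80496417 (Scg3, minus strand), chr2:1969912-1969971 (Pcsk1, plus strand), chr3:99629194-99629253 (Scg5, minus strand), chr6:126832496-126832555 (Chga, plus strand), chr3:120584813-120584872 (Chgb, plus strand) and chr9:78762735-78762794 (Scg2, minus strand). The files list the Cpe probe as unmapped. No annotation of build rn4 was used here, so exons and introns are not named.

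The probes of Scg5, Chga and Chgb hold the hexamer AATAAA on the transcript strand, the usual signal for polyadenylation, as do 8.39% of all 30367 probes. A window of 30 bases around the hexamer, in capitals, is shown for these 3 genes because a probe with this signal may lie near the end of a transcript.
Scg5: tctgctgcttcttAATAAAtgtatgtgcaa
Chga: aatttattgaaggaagAATAAAcctgcttt
Chgb: tgaaacacaaacAATAAAagatttacctga

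The female and male pools had nearly the same level of 9 of the 10 genes, and Pam was higher in the female pool. The 9 genes differed by less than 1.1-fold, between -0.13 and 0.13 on the log2 scale, and Pam by 1.53-fold or 0.62. The median difference of the 10 genes was -0.0063 log2, beside 0.00011 over all genes measured. A level here is log2 of the processed spot intensity minus log2 of the 75th percentile of the non-control spots of that array, and a difference is the female level minus the male level. Levels of different genes come from different probes and are not compared.

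**Figure D1:**
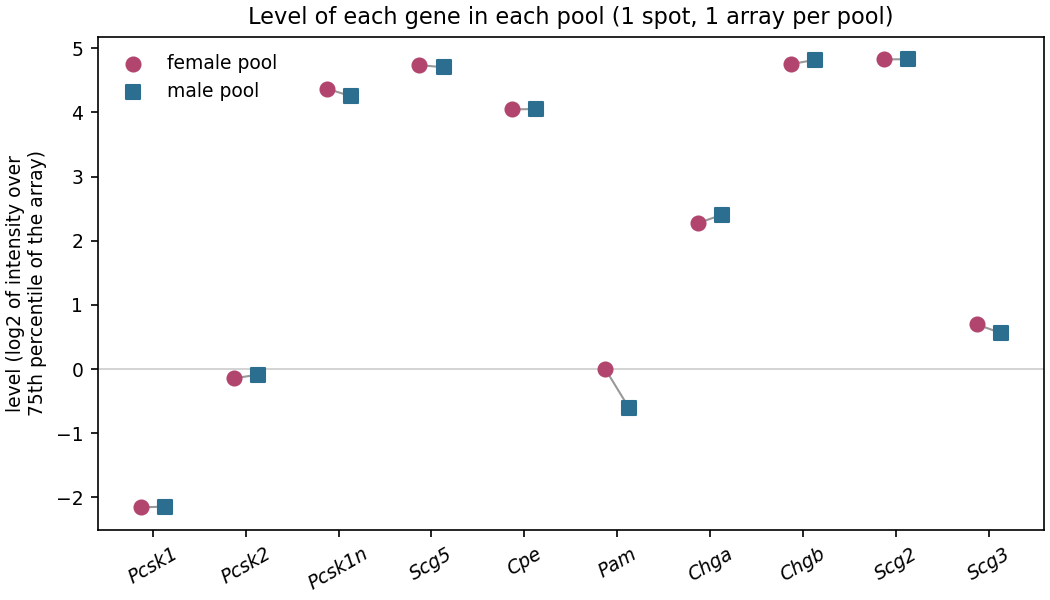
The level of each gene, log2 of the intensity over the 75th percentile of the array, is plotted for the female pool (circles) and the male pool (squares). The paired symbols lie close together for 9 genes and apart for Pam, at 0.0051 in the female pool against -0.61 in the male pool, and heights of different genes cannot be compared.

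Past 1.1-fold, 1 of the 10 genes was higher in the female pool, where 19.6% of all genes were, and 0 were higher in the male pool, where 14.0% of all genes were. At 1.2-fold the counts were again 1 and 0, beside 8.58% and 4.52% of all genes. Pam was the 1 gene past 1.5-fold in the female pool, a size reached by 1.55% of all genes, and 0 of the 10 were past it in the male pool, beside 0.842%. A difference of less than 1.1-fold, seen in 9 of the 10, was seen in 66.4% of all genes. The split of all genes depended on the scaling: past 1.2-fold, 1772 genes were higher in the female pool against 934 in the male pool here, and with spike-in scaling 1176 were higher in the female pool against 1689 in the male pool. With spike-in scaling Pam was the 1 gene of the 10 past 1.1-fold in the female pool, at 0.54 log2, beside 2457 of all genes. Chga and Chgb were the 2 past it in the male pool, at -0.20 and -0.14, beside 6249 of all 20655 genes.

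The error given below is a technical SD. It comes from probes printed on many spots, taking the spread of the difference among spots of 1 probe for the 100 such probes nearest in level, and it ran from 0.052 to 0.076 log2 for the 10 genes. It leaves out labelling, hybridisation, pooling and the rats. Over all genes the difference had an SD of 0.23 log2 and a robust SD of 0.14.

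Both convertases had nearly equal levels in the female and male pools. Pcsk1, which encodes PC1/3, was at -2.15 in the female pool against -2.14 in the male pool, a difference of -0.012 ± 0.076 log2 (technical SD). Pcsk2, which encodes PC2, was at -0.14 in the female pool against -0.086 in the male pool, a difference of -0.059 ± 0.057. The first lay within the spread of repeated spots and the second was 1.03 technical SD. Before scaling, the Pcsk1 spot had an intensity of 661 on the female array and 854 on the male array, well above background on each.

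The proteins that act on the convertases are encoded by Pcsk1n and Scg5. ProSAAS, from Pcsk1n, yields a peptide that inhibits PC1/3. The level of Pcsk1n was 4.37 in the female pool against 4.25 in the male pool, a difference of 0.12 ± 0.052 log2. That was 2.27 technical SD, while 39.3% of all genes differed by at least as much in either direction. Scg5 encodes 7B2, which is needed for proPC2 to mature and whose C-terminal part inhibits PC2, and its level was 4.74 in the female pool against 4.70 in the male pool, a difference of 0.036 ± 0.052. The Scg5 value was within 1 technical SD of 0, and its sign turned to -0.0027 with scaling on the median and -0.038 with spike-in scaling.

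Carboxypeptidase E gave one of the closest matches. Cpe was at 4.05 in the female pool against 4.05 in the male pool, a difference of -0.0077 ± 0.053 log2, and 95.4% of all genes differed by at least as much.

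Among the granins, 1 gene was higher in the female pool against 3 in the male pool, all by less than 1.1-fold, with a median of -0.036 log2. Chga encodes chromogranin A, the precursor of vasostatin and catestatin, and was at 2.28 in the female pool against 2.41 in the male pool, a difference of -0.13 ± 0.057. Chgb, for chromogranin B, was at 4.75 in the female pool against 4.82 in the male pool, a difference of -0.068 ± 0.052. Those 2 chromogranins were slightly lower in the female pool, Chga by 2.28 technical SD and Chgb by 1.29. Scg2 encodes secretogranin II, the precursor of secretoneurin, and its level was 4.83 in the female pool against 4.83 in the male pool, the smallest difference of the 10 genes at -0.0048 ± 0.052. Scg3, for secretogranin III, a granin that binds chromogranin A and the vesicle membrane, was at 0.70 in the female pool against 0.57 in the male pool, a difference of 0.13 ± 0.067. At least as large a difference as that of Chga was found for 35.7% of all genes, and as that of Scg3 for 35.3%.

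Pam stood apart from the other 9. Its spot had an intensity of 2954 on the female array and 2468 on the male array, although the 75th percentile of all spots was 2943 on the female array and 3769 on the male array. It was thus the 1 gene of the 10 that was brighter on the female array before any scaling, and the other 9 were brighter on the male array. After scaling, Pam was at 0.0051 in the female pool against -0.61 in the male pool, a difference of 0.62 ± 0.060 log2, or 10.2 technical SD. A share of 2.13% of all genes differed by at least as much in either direction. Its 1.53-fold difference lay just past 1.5-fold, and with arrays scaled on the median it was 0.58 log2, just short of it.

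**Figure D2:**
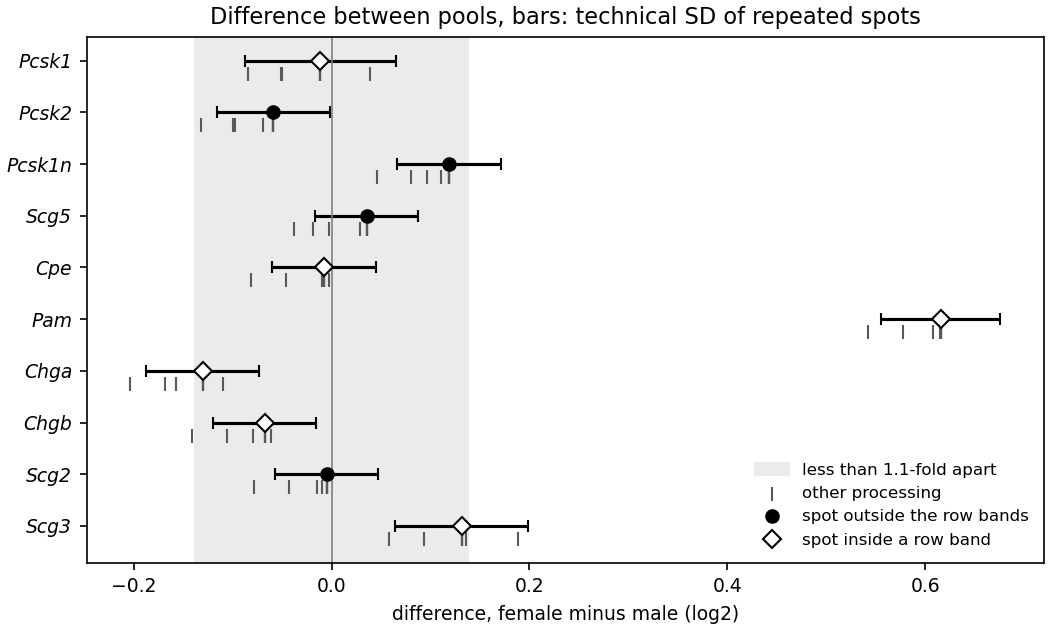
The female minus male difference (log2, horizontal axis) of each gene is shown with its technical SD (bars), filled circles for spots outside and open diamonds for spots inside the bands of slide rows described in the text. Grey ticks give the value under the other processing settings except the normexp correction fitted on all spots; Pam is the only gene with every shown value outside the shaded range of less than 1.1-fold.

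The Pam spot lay in rows of the slide where repeated spots often departed from each other. Probes printed on many spots showed where single spots departed from the median of their own probe by over 4 robust SD. Of 27 strips of 20 slide rows (the last one shorter), 15 had over 2% of repeated spots departing and are called bands here, 5.25% in all, against 1.60% in the other 12. Of the 10 genes, 6 had their spot inside such a band, namely Pcsk1, Scg3, Cpe, Chga, Pam and Chgb. In the rows of the Pam spot, 7.09% of 508 repeated spots departed, and in those shared by Scg3 and Cpe 15.9% of 503. Among spots of the same repeated probe, at all levels, the SD ran from 0.067 log2 in the rows of Scg5 to 0.14 in those of Scg3 and Cpe. It was 0.13 in the rows of Pcsk1, 0.10 in those of Pcsk1n and 0.068 in those of Chga. The technical SD was matched in level but not in rows. The 4 genes outside the bands, Scg5, Pcsk2, Scg2 and Pcsk1n, had differences between -0.059 and 0.12 log2, with a median of 0.015.

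**Figure D3:**
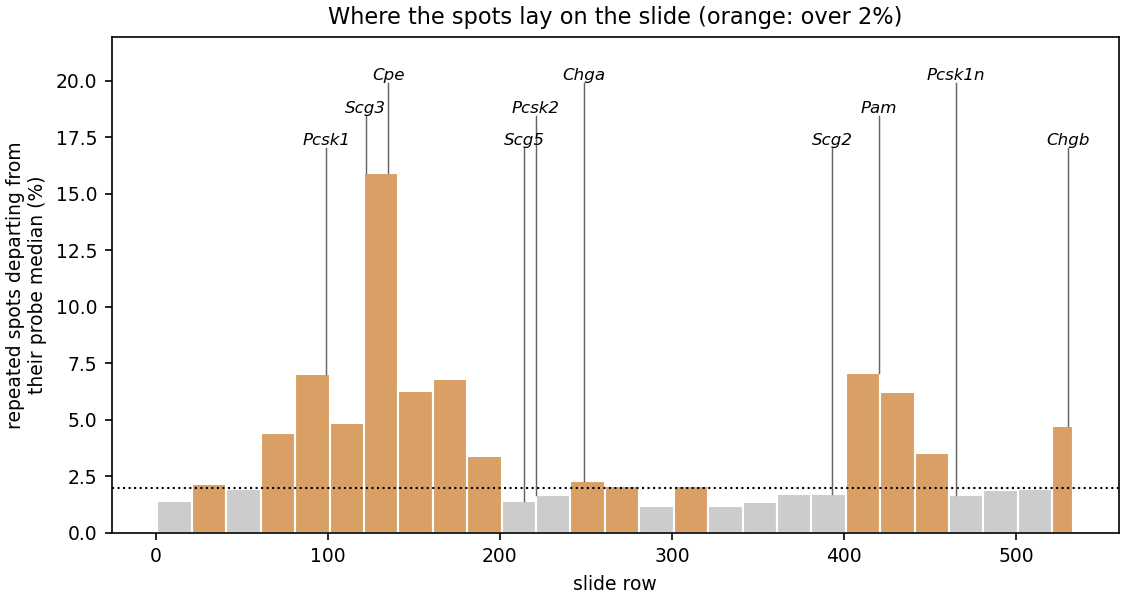
Bars give, for each strip of 20 slide rows (horizontal axis), the percentage of repeated spots that departed from their probe median, orange where it was over 2% (dotted line). Lines mark the rows of the 10 genes, with Scg3 and Cpe in the strip at 15.9% and Pam in one at 7.09%.

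Some of the spots that touch the Pam spot also differed between the arrays. Of the 8 adjoining spots, 7 were well above background on at least 1 array, and 2 of these differed by at least 1.5-fold, both lower on the female array. The spot to the left of Pam was at -4.61 in the female pool against -3.20 in the male pool, a difference of -1.41 log2. The spot just below was not well above background on the female array, and at a level of -4.22 on the male array it was at least 11.3-fold higher there. Both were dimmer than Pam, with intensities of 121 and 8.7 on the female array and 409 and 202 on the male array. The other adjoining spots above background differed by between -0.30 and 0.022 log2. Within 5 rows and 5 columns of Pam, 10 of 97 spots well above background on both arrays differed by at least 1.5-fold, 10.3%, with an SD of 0.46 log2 and a median of -0.0047. Around the other 9 genes that share ran from 0% to 5.43%. The difference of Pam, at 0.62, was thus 10.2 times the technical SD and 1.33 times the SD of the spots around it. The latter SD is taken over different genes, so it holds their own differences between the pools and is not an error of Pam. Among spots of the same repeated probe, those in the strip of rows of Pam had an SD of 0.11 log2. No second probe of Pam was present on the array, and the part of the slide position in the Pam difference was not tested.

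**Figure D4:**
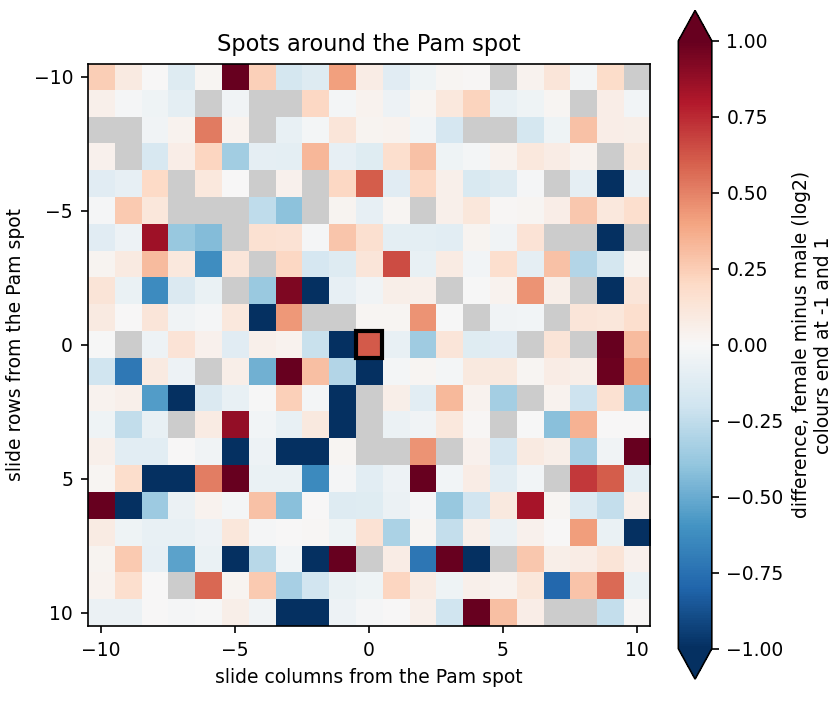
Each square is a spot within 10 rows and 10 columns of the Pam spot (black frame), coloured by the female minus male difference in log2 with colours ending at -1 and 1, and grey where a spot is a control or gives neither a difference nor a bound. A spot well above background on 1 array only is coloured by its bound. Strongly coloured spots lie on all sides of Pam, among them 2 of the adjoining spots.

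Genes of the same pathway outside the 10 were described from lists drawn up with earlier results of these data known. The list of other proprotein convertases had 7 genes, all 7 lower in the female pool, by a median of -0.14 log2. Of these 0 were past 1.5-fold in the male pool, beside 0.842% of all genes. Furin, the convertase of the constitutive secretory pathway, was at -0.93 in the female pool against -0.44 in the male pool, a difference of -0.49 log2 from 1 spot inside a band. Pcsk5 averaged -0.42 log2, but its probes, both on spots inside bands, gave -0.0063 and -0.84 log2, so the difference rested on the dimmer one. The convertase with most spots, Pcsk6, was picked with its value in view and differed by -0.13 ± 0.070 log2 (SD, 10 spots) on its repeated probe. These differences are 1 direction on 1 pair of arrays, and 2 of the 7 were past 1.2-fold in the male pool, beside 4.52% of all genes.

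Other enzymes that trim or modify peptides differed by a median of -0.038 log2, and 4 of 13 were higher in the female pool against 9 in the male pool. Cpz, a carboxypeptidase of the extracellular matrix, was at -2.42 in the female pool against -3.27 in the male pool, 1.80-fold apart, from a spot inside a band. Mboat4, the enzyme that acylates ghrelin, was 1.35-fold higher in the female pool, also inside a band, and the tyrosine sulfotransferase gene Tpst2 differed by -0.13 log2. Copper handling genes, drawn up because Pam needs copper, had a median of -0.016 log2 over 6 genes. Of these, 0 reached 1.2-fold, a size reached by 8.58% of all genes with the female level higher and 4.52% with the male level higher. The copper pump gene Atp7a, which supplies copper to enzymes in the secretory pathway, differed by 0.20 log2 from a spot inside a band. The copper chaperone gene Atox1 differed by -0.10 and Slc31a2 by 0.081.

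Dense-core vesicle cargo and exocytosis genes went both ways, 11 of 24 being higher in the female pool against 13 in the male pool, with a median of -0.012 log2. Past 1.1-fold, 5 were higher in the female pool against 2 in the male pool, beside 19.6% and 14.0% of all genes. Past 1.5-fold there were 0 in either, beside 1.55% and 0.842% of all genes. Sytl4, which encodes the vesicle-docking protein granuphilin, was at -4.75 in the female pool against -4.47 in the male pool, with both spots inside bands. Ptprn2, which encodes the vesicle membrane protein phogrin, was at 1.97 in the female pool against 1.70 in the male pool, with probes of 0.18 and 0.36 log2. Slc18a2, the vesicular monoamine transporter gene, differed by -0.26 log2. Vgf, a further granin-like precursor picked with its value in view, was at 5.17 in the female pool against 5.00 in the male pool, a difference of 0.17 ± 0.052 log2 (technical SD) from a spot inside a band.

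The precursors on which the enzymes act differed by a median of 0.034 log2, and 25 of 42 were higher in the female pool against 17 in the male pool. The largest differences were those of Kiss1, 1.22 log2 from 1 spot inside a band, Gnrh1, 0.58 ± 0.029 log2 (SD, 9 spots), and Qrfp, -0.58 log2, also from 1 spot inside a band. Summed over the 42 genes, the level was 266.1 times the 75th percentile in the female pool against 265.7 times in the male pool. Bright probes weigh most in this sum, which adds different probes and is not an amount of precursor RNA. Pmch made up 85.7 of it in the female pool against 79.8 in the male pool, and Oxt 40.6 against 37.1. Avp went the other way, at 38.7 in the female pool against 46.5 in the male pool.

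**Figure D5:**
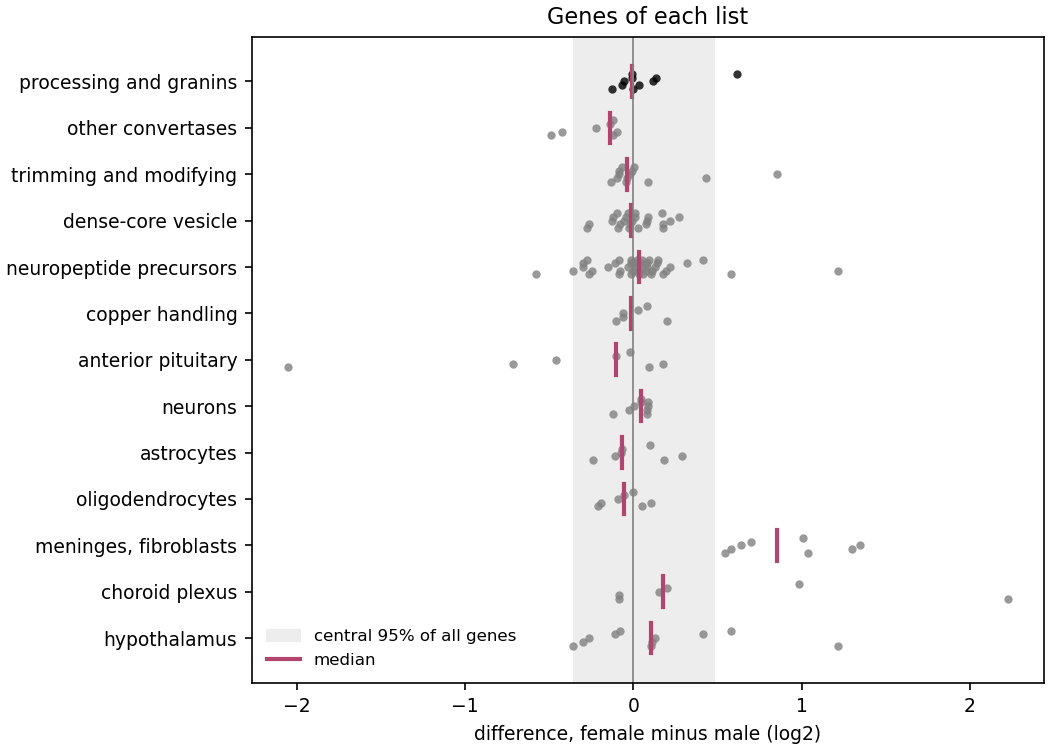
Points are the female minus male differences (log2, horizontal axis) of the genes of each list, black for the 10 processing enzymes and granins, bars their medians, and the shaded range the central 95% of all genes, from -0.35 to 0.48. Processing enzymes and granins cluster near 0 except Pam, and the list of meninges and fibroblasts lies to the right.

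Markers of the tissue and of other cells were read beside these values. All 11 listed hypothalamic peptide genes were well above background in both pools. Neuron markers had a median of 0.043 log2 over 9 measured genes, between -0.12 (Nefm) and 0.088 (Map2), with Tubb3 at 0.085. Of the 9, 7 were higher in the female pool against 2 in the male pool. Rbfox3 was not analysed here. Their summed level was 53.4 in the female pool against 52.2 in the male pool, in units of the 75th percentile.

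Endocrine cells of the anterior pituitary also make granins and convertases. Of 7 measured pituitary markers 5 were lower in the female pool, at a summed level of 2.32 in the female pool against 3.47 in the male pool. Cga, from 1 spot inside a band, made up 1.35 of that sum in the female pool against 2.22 in the male pool. Among the 5, Lhb differed by -0.022 log2, within its technical SD of 0.074. Tshb was 4.15-fold and Cga 1.64-fold higher in the male pool, and Pou1f1 differed by -0.46 log2 from a spot inside a band. Prl went the other way, being well above background in the female pool only and at least 4.74-fold higher there, from 1 spot, and Gh1 was well above background in neither pool. Chga, Chgb and Pcsk2 were lower in the female pool by at most 1.09-fold. Scg3, Pcsk1n and Scg5 went the other way, at 0.13, 0.12 and 0.036 log2, and Pcsk1 and Scg2 differed by -0.012 and -0.0048. The part of pituitary cells in these differences was not tested.

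Meningeal and fibroblast markers had the largest median difference of the lists. All 8 were higher in the female pool, by a median of 0.85 log2 and a summed level of 3.73 in the female pool against 1.87 in the male pool. The largest were Slc22a6 (1.34 log2, from 1 spot inside a band), Ogn (1.30) and Col1a2 (1.04). Choroid plexus markers had a summed level of 2.43 in the female pool against 1.36 in the male pool over 6 genes, a median of 0.18 log2, and 4 were higher in the female pool against 2 in the male pool. Ttr, from 1 spot inside a band, made up 2.13 of that sum in the female pool against 1.08 in the male pool, and differed by 0.98 log2. Kcnj13 differed by 2.22 log2, also from a spot inside a band, and Aqp1 by 0.20, while Clic6 and Folr1 each differed by -0.086. Astrocyte markers had a median of -0.069 log2 over 7 genes and summed levels of 15.3 in the female pool against 15.7 in the male pool. Among them Sox9 was at 0.29, with both spots inside bands, Gfap at -0.24 and Slc1a2 at 0.18. Oligodendrocyte markers had a median of -0.058 over 7 genes and summed levels of 50.8 in the female pool against 53.7 in the male pool, with Cldn11 at -0.21 and Mbp at 0.10. The part of these cells in the Pam difference was not tested.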

How the data were processed

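Agilent Feature Extraction made the scanner files, version 10.7.3.1 per the file headers and 9.1 per the submitters' processing notes; which one made the values is not settled. Per the file headers, the deposited processed intensity of a spot is background-subtracted and detrended within its array, and the build is rn4. The other deposited values used were flags (well above background, saturated, outlier) set by the same program. The deposited value table held 36348 spots, and its ratio to the scanner intensity was constant within each array. Its medians were 29.5 in the female pool against 29.0 in the male pool, on a linear scale without centring.

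Levels were scaled to the 75th percentile of the 42877 non-control spots. Outlier spots (292 on the female array, 286 on the male array) were left out, spots were averaged per probe, and probes per gene. A probe counted as measured if more than 50% of its spots passed the flag for signal well above background on each array. Of all non-control spots 84.2% passed it on the female array and 84.9% on the male array, and 0 were saturated. Of the probes, 18758 were named by RefSeq accession, 2050 by symbol and 202 by synonym in a gene table of the assembly GRCr8, and 9357 kept the files' name. The 10 genes were found by the files' gene name. A bound for a gene measured in 1 pool was taken against the dimmest level that passed that flag on the other array, or the spot's own level if higher. The technical SD used 12740 spots of 1312 repeated probes.

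The 10 genes and all lists were chosen with earlier results of these data known. Named from each list were the 3 largest differences, of which some are not reported here. The calculation was tested on simulated data, and 10 alternatives and 1 added later were run with Python 3.11.15, numpy 2.4.6, R 4.3.3 and limma 3.58.1. The number of arrays, 1 per sex, limits the precision.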

Additional observations from a re-analysis of the deposited data

How the results depend on the processing

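Under 10 alternatives and 1 more added after seeing the data, Pam stayed higher in the female pool wherever it had a value. Several of these could not change the values of the 10 genes, as set out below. The signs of other genes turned under some settings, as given for Scg5 with scaling and below for normexp. Quantile normalization left every count of the 10 genes as reported. Kept outlier spots, medians over spots, the brightest probe per gene and no filter on dim probes could not change them. Each of the 10 genes had 1 spot without an outlier flag that was well above background on both arrays. The deposited value table holds the same intensities times a constant per array, so its counts, also as reported, were nearly fixed in advance. Median scaling gave 1 gene past 1.1-fold in the male pool and 0 past 1.5-fold in the female pool, with 4394 of all genes past 1.1-fold in the male pool. Spike-in scaling gave Pam 0.54 log2, 2 genes past 1.1-fold in the male pool and 0 past 1.5-fold in the female pool. Of all genes it put 2457 and 6249 past 1.1-fold in the female and male pool and 1176 and 1689 past 1.2-fold. With no filter on dim probes 7188 of all genes were past 1.1-fold in the female pool, 3162 and 2119 past 1.2-fold in the female and male pool, and 1198 and 877 past 1.5-fold.

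Leaving out the row bands kept 4 of the 10 genes, without Pam, and 0 were past 1.1-fold, 1.2-fold or 1.5-fold in the female pool. Of the 10641 genes then measured, 1994 and 1300 were past 1.1-fold in the female and male pool, 836 and 341 past 1.2-fold, and 113 and 25 past 1.5-fold.

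Normexp on all spots moved the median of all genes to -0.55 log2. On the male array 1 spot had a net signal of -19745 over its local background, and without the 2 spots below -100, the added alternative, that median was 0.050. On all spots, Pam was 0.50 log2 and the median of the 10 genes 0.18, with 6 genes past 1.1-fold in the female pool against 1 in the male pool, 2 and 1 past 1.2-fold, and 0 past 1.5-fold in the female pool. Of all genes, 2090 and 13917 were past 1.1-fold, 562 and 12594 past 1.2-fold, and 48 and 10077 past 1.5-fold in the female and male pool. Cpe, Chga, Chgb and Scg2 changed sign there. Without the 2 spots, Pam was 0.61, 2 genes were past 1.1-fold in the female pool against 1 in the male pool, 6128 and 1382 of all genes were past 1.1-fold, 228 past 1.2-fold in the male pool, and 174 and 36 past 1.5-fold in the female and male pool, while Pcsk1 and Scg5 changed sign.

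Of 132 list medians under these alternatives, 120 moved by less than the technical SD of all repeated spots, 0.096 log2, and 9 of the other 12 were under normexp on all spots, where meninges and fibroblasts had 0.055. The other 3 were choroid plexus at 0.057 without row bands and 0.30 under normexp without the 2 spots, and anterior pituitary at 0.032 with no filter on dim probes. Median scaling, spike-in scaling and the deposited value table shift all genes alike, by less than 0.096, so list medians there could not pass it. Smaller moves still turned signs. Neuropeptide precursors went from 0.034 to -0.0047 with median scaling and -0.040 with spike-in scaling, and neurons from 0.043 to -0.030 with spike-in scaling. No paired analysis was possible because each sex had 1 array. All 10 genes were well above background, so signal over background did not limit them, whereas 1 spot per gene and 1 array per sex did.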
